A study of Saccharomyces cerevisiae with 5 samples.

Results

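The genes described here take up sulfur, reduce it, build methionine and cysteine from it and control these steps in the budding yeast Saccharomyces cerevisiae. They are 36 genes, chosen by name, with earlier results of these data known. They were arranged by role into sulfate assimilation, the methionine cycle with its links to cysteine, transport and regulators. A gene was read from a probe set (the group of array probes made for a transcript) that the platform annotation gives to that gene alone, and from the brightest where there were several. All 36 had such a probe set, out of 5656 genes with a probe set of their own, and together they had 43 of the 9335 probe sets on the array. The 29 whose mean signal reached 250.3 were tested. The 2 wild type arrays came from the laboratory strain BMA64, which belongs to the W303 family, and the 3 deletion arrays from BMA64 lacking VTS1, which encodes an RNA-binding protein that promotes the decay of some mRNAs. All cultures were grown in SD, a synthetic glucose medium, at 30 degrees and were harvested at an optical density of 0.4. The labels do not say how much methionine the medium held, or whether the deletion arrays came from separate clones or cultures. For every array, wild type included, the treatment field names a chemical transfection with VTS1, and the labels do not say what it was. The titles of the deletion arrays also carry the name VTS1, and that of deletion replicate 3 lacks the prefix dvts1 that the other 2 have.

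Yeast brings sulfate into the cell, activates it with ATP, reduces it to sulfide and joins the sulfide to a 4-carbon precursor to make homocysteine. Homocysteine is methylated to methionine, methionine is turned into S-adenosylmethionine (the methyl donor of the cell), and the by-product of methylation returns to homocysteine. The activator Met4 switches these genes on when sulfur compounds run low, together with the DNA-binding proteins Cbf1, Met28, Met31 and Met32, and the ubiquitin ligase subunit Met30 holds Met4 back when methionine is plentiful.

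The values are MAS5 signals, which are linear intensities. The check of the deletion is VTS1 itself, whose wild type signals were 4952.3 and 5079.9. Its deletion signals were 19, 17.8 and 55, below the background of each array. The background level of an array, taken from 28 control probe sets with no target in yeast, lay between 98 and 166.7. The 3 deletion arrays and the 2 wild type arrays correlated within each group at r = 0.981 to 0.990 across genes, which are not independent replicates. As a sign of RNA quality, the actin probe set near the 3' end was divided by that near the 5' end. The quotient was 1.34 and 1.17 for the wild type, against 1.51, 1.35 and 1.25 for the deletion. For TBP it was 2.70 and 2.82 against 2.60, 2.79 and 2.37. For SRB4 it was 3.39 and 2.42 against 3.02, 3.64 and 5.32, with deletion replicate 3 the highest. The part of RNA quality in the results was not tested. A lower signal in such bulk RNA cannot tell fewer cells with a transcript from less of it in each cell.

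MMP1, the permease for S-methylmethionine, fell 2.59-fold in the deletion strain. SAM2, a synthetase of S-adenosylmethionine, fell 1.36-fold, and MET13, the main methylenetetrahydrofolate reductase, rose 1.44-fold. The other 26 tested members had no call. A call here means a limma p-value below 0.05 after Benjamini-Hochberg adjustment, which took in all 6294 probe sets that were tested. The 2 members that fell were 6.90% of those tested, against 3.05% of all probe sets. The 1 that rose was 3.45%, against 4.39%. In either direction 3 members (10.3%) had a call, against 7.44%.

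Counted without regard to the threshold, the members leaned lower. The counts that follow take in the 3 members with a call. A negative log2 change (deletion minus wild type) was seen for 22 of the 29 (75.9%), against 54.8% of all probe sets tested, and the median was -0.12, against -0.04. All 3 deletion arrays lay below both wild type arrays for 10 members (34.5%), where 21.7% of all probe sets did so, and above both for 2 (6.90%), where 16.8% did. One of the 2 is MET28, which passed the filter on dim signals only through its deletion arrays, so its direction there supports nothing. At an unadjusted p below 0.05 there were 9 lower members (31.0%, against 11.1%) and 2 higher (6.90%, against 10.3%). Over all 36 members, with the 7 dim ones at a floor of 50.1, the median difference was -0.13, against -0.03 over all 9275 probe sets that are not controls. The members share a pathway and its regulators, so they are not independent of each other.

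**Figure D1:**
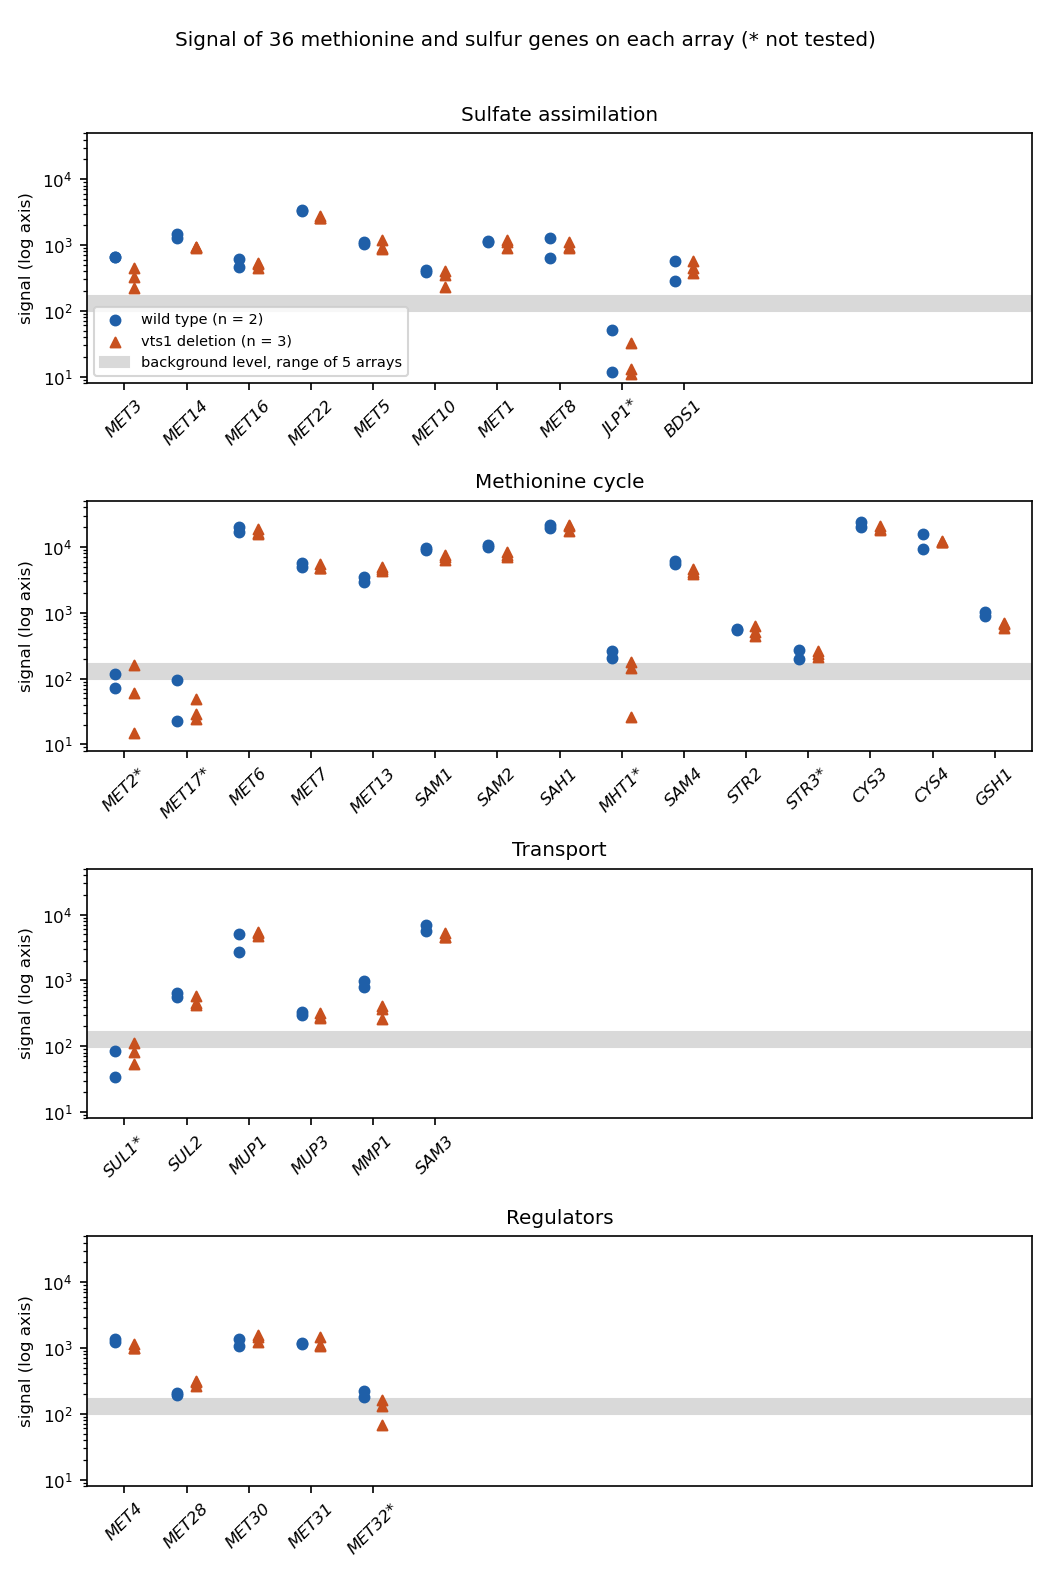
Signal of each of the 36 genes on each array, on a log axis, in 4 panels by role. Circles are the 2 wild type arrays, triangles the 3 deletion arrays, the grey band spans the background levels of the 5 arrays (98 to 166.7), and an asterisk marks the 7 genes that were not tested. The symbols of MMP1 stand clear of each other, while those of MUP1, CYS4 and MET8 show wild type arrays that lie far apart.

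Sulfate assimilation had no call among its 9 tested genes. Of these, 7 had a negative log2 change (77.8%, against 54.8% of all probe sets tested), with a median of -0.13. The enzymes that activate sulfate came nearest to the threshold. MET3, ATP sulfurylase, had wild type signals of 652.2 and 657, and deletion signals of 327.4, 222.4 and 450. MET14, the kinase for the next step, had 1451.6 and 1267.8 against 901.5, 927.5 and 920.7. For both genes every deletion array lay below both wild type arrays. The log2 change was -1.03 ± 0.29 (SE, n = 3 against 2, adjusted p = 0.055) for MET3 and -0.57 ± 0.16 (adjusted p = 0.0511) for MET14. MET3 passed the threshold in 5 of 16 alternatives, and its adjusted p ranged from 0.0199 to 0.282 over the alternatives. It passed without deletion replicate 3, with a log2 change of -1.28 (adjusted p = 0.0349). It also passed with quantile normalization, median centring, robust eBayes and array weights. MET14 passed in 3 of 17, with quantile normalization, median centring and array weights.

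MET22, the phosphatase that clears the nucleotide by-product of sulfate reduction, also separated, with signals of 3358.2 and 3309.7 against 2739.3, 2561.1 and 2569.7. Its log2 change of -0.35 ± 0.13 had no call (adjusted p = 0.131). The later reduction steps overlapped between the groups. MET16, which reduces activated sulfate to sulfite, had a log2 change of -0.11, and MET5 and MET10, the subunits of sulfite reductase, had -0.13 and -0.35 (adjusted p from 0.548 to 0.823 for the 3 genes). MET1 and MET8, which make the siroheme that sulfite reductase needs, had -0.12 and 0.12. The interval of the difference was wide for MET8, from -0.42 to 0.67, whose wild type signals of 1268 and 635.6 enclosed those of the deletion arrays (949.6, 896.5 and 1100.4).

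The enzymes that free sulfate from organic compounds gave little. JLP1, a dioxygenase that acts on sulfonates, was below background on every array, with signals from 11.1 to 52. BDS1, a sulfatase, had a log2 change of 0.20 at its brightest probe set and -0.25 at the second brightest, neither with a call (adjusted p = 0.767 and 0.612). Its 2 other probe sets had mean signals of 75.3 and 71.4 and were not tested.

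In the methionine cycle 1 of 11 tested genes rose and 1 fell (9.09% each, against 4.39% and 3.05% of all probe sets). A negative log2 change was seen for 10 (90.9%, against 54.8%), with a median of -0.11. With 11 genes these shares are coarse. MET13, which makes the methyl-folate that methylates homocysteine, had signals of 3462.7 and 2950.9 against 4273, 4662.7 and 4922.6. The lowest deletion array was higher than the highest wild type array, with means of 4619 ± 327 (SD, n = 3) and 3207 ± 362 (SD, n = 2). The log2 change was 0.53 ± 0.13 (SE, adjusted p = 0.0306). The call was lost without wild type replicate 2 (0.41, adjusted p = 0.181), deletion replicate 2 (0.52, adjusted p = 0.125) or deletion replicate 3 (0.48, adjusted p = 0.117), and the adjusted p ranged from 0.0108 to 0.181 over the alternatives.

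MET6 encodes the methionine synthase that uses this methyl group, and it had no call. Its signals were 20332 and 16645.9 against 15975.5, 18718.7 and 16436.2, so the groups overlapped, and its log2 change was -0.11 with an interval from -0.40 to 0.17. MET7, which lengthens the folate tail that methionine synthase requires, had -0.11 with an interval from -0.39 to 0.17. SAH1, which recycles the by-product of methylation to homocysteine, had -0.04 with an interval from -0.32 to 0.24. For these 3 genes the intervals leave out a change of the size measured for MET13 in the upward direction.

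S-adenosylmethionine synthetase is encoded by a pair of near-identical genes, SAM1 and SAM2, whose RNA the probe sets may not fully separate. SAM2 had signals of 10067.4 and 10767.3 against 7043, 8415.1 and 7540.1. SAM1 had 8840.6 and 9581.5 against 6359.1, 7570.1 and 7151.8. Every deletion array lay below both wild type arrays for either gene. SAM2 fell, with a log2 change of -0.45 ± 0.12 (adjusted p = 0.0465), and SAM1, at -0.39 ± 0.12, had no call (adjusted p = 0.0815). The difference between these paralogs was not tested. A further probe set assigned to both genes had signals of 59313.3 and 61719.6 against 54620.4, 59659.5 and 50145. Its groups overlapped and its log2 change was -0.15 ± 0.12 (adjusted p = 0.535). The call of SAM2 lay close to the threshold and was lost when any 1 array was left out, with adjusted p of 0.0776 without wild type replicate 1, 0.194 without wild type replicate 2, and 0.0887, 0.0884 and 0.127 without deletion replicates 1, 2 and 3. It was also lost with median centring (adjusted p = 0.059), with array weights (adjusted p = 0.0654), without the filter, without a variance trend and with the block. The call of SAM2 was thus kept in 7 of 17 alternatives, with a lowest adjusted p of 0.0372.

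**Figure D2:**
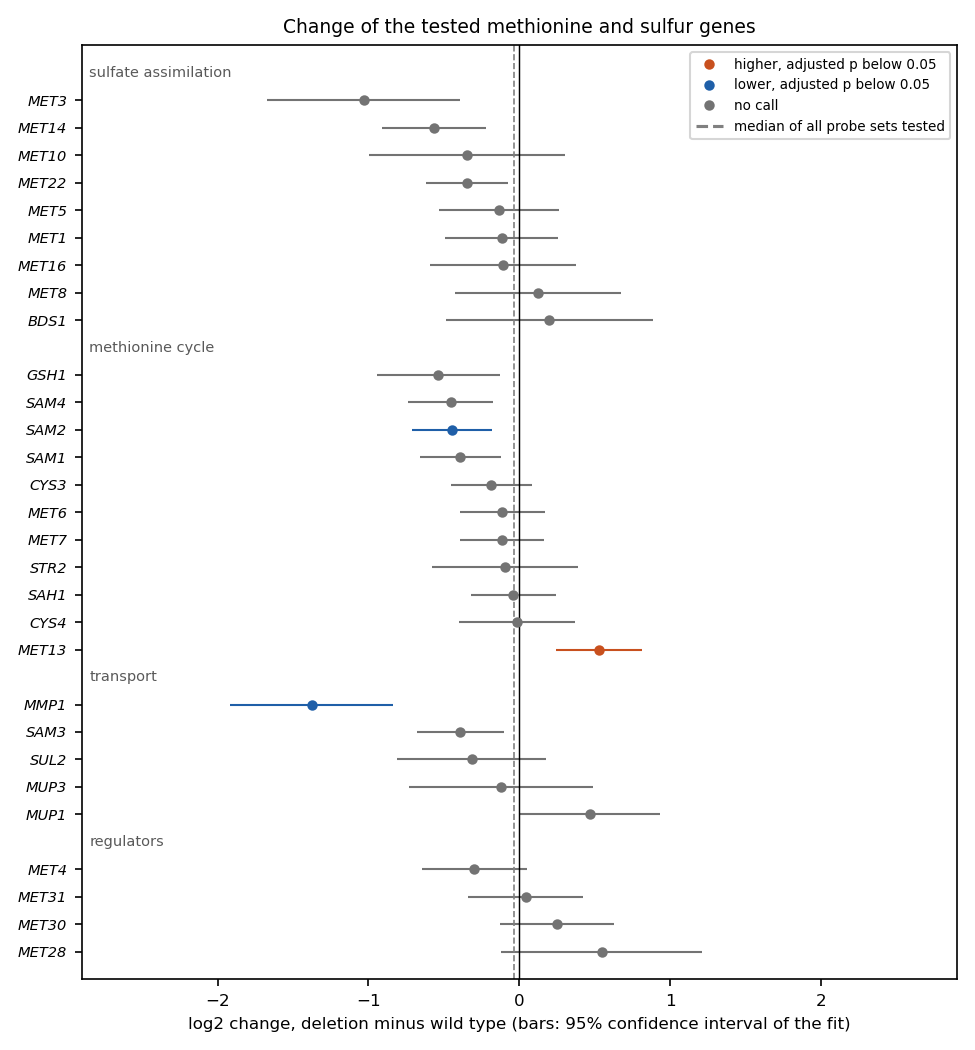
Log2 change (deletion minus wild type) of the 29 tested genes by role, with the 95% confidence interval of the fit. Blue marks the genes that fell (MMP1 and SAM2), orange the gene that rose (MET13) and grey those with no call. Most points lie to the left of the dashed line, the median of all probe sets tested at -0.04, and MMP1 lies farthest out at -1.38.

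The genes that pass sulfur between homocysteine and cysteine overlapped between the groups. CYS3, cystathionine gamma-lyase, had a log2 change of -0.19 (interval from -0.46 to 0.08). CYS4, cystathionine beta-synthase, had signals of 15715.2 and 9362.3 in the wild type, with the 3 deletion arrays between them at 11958.3, 11745.8 and 12290.1. STR2, which works in the opposite direction as cystathionine gamma-synthase, had -0.09 (adjusted p = 0.85). STR3, cystathionine beta-lyase, was too dim to test, with mean signals of 236 and 233. GSH1, which starts glutathione synthesis from cysteine, had 877.5 and 1012.3 against 676.2, 577.2 and 699.9. Its arrays separated downward, with no call for the log2 change of -0.54 ± 0.19 (adjusted p = 0.116).

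MET2 and MET17, which make O-acetylhomoserine and join it to sulfide, gave almost no signal. MET17 had 22.6 and 94.4 against 28.6, 49.4 and 24.2, and MET2 had 115.8 and 71 against 59.9, 14.8 and 161.2. No MET17 value and only 1 MET2 value, that of deletion replicate 3, exceeded the background level of its array. For the route that joins sulfide into homocysteine the arrays thus give no level above background in the wild type. Whether the transcripts were scarce or the probe sets did not bind them in this strain was not tested.

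Transport held the member that changed most. MMP1 had wild type signals of 963.9 and 802.3, and deletion signals of 262.6, 365.7 and 405.3. The groups were well apart, with means of 883 ± 114 (SD, n = 2) and 345 ± 73.7 (SD, n = 3). The log2 change was -1.38 ± 0.25 (adjusted p = 0.00428). It lay between -1.51 and -1.19 over 17 alternatives, and the call was kept in 16 of them, each array left out in turn included (adjusted p = 0.00514 to 0.0459).

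MMP1 stands next to MHT1 in the reference gene order. MHT1 encodes the methyltransferase that uses S-methylmethionine to make methionine from homocysteine. It was dim, with 264.4 and 201.9 against 25.6, 176.1 and 145.9, and was not tested. All 3 of its deletion arrays lay below both wild type arrays, and 2 of them were above background. The genes that flank this pair, AYT1 and GTT2, also separated downward, with log2 changes of -0.56 ± 0.19 and -0.34 ± 0.24 and no call (adjusted p = 0.113 and 0.453).

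The matching pair for S-adenosylmethionine is SAM3, its permease, and SAM4, the methyltransferase that uses it, which are also neighbours. SAM3 had 5711 and 6903 against 4545.6, 4590.5 and 5264 at its brightest probe set. SAM4 had 5424.3 and 6068.7 against 3830.4, 4202.1 and 4562.7. Both separated downward without a call, with log2 changes of -0.39 ± 0.13 (adjusted p = 0.111) and -0.45 ± 0.13 (adjusted p = 0.0536). SAM4 passed the threshold in 4 of 17 alternatives, with the stricter filter, median centring, robust eBayes and array weights. The 4 other probe sets of SAM3 were also lower on average, 3 of them tested, with log2 changes from -0.40 to -0.25 and no call. A probe set shared by SAM4 and YMR321C had -0.35 ± 0.12 (adjusted p = 0.118). PBI1, on the other side of SAM4, was too dim to test and also separated downward, with 258.8 and 220.2 against 170.3, 99 and 96.5. Among the 36 genes only these 2 pairs are direct neighbours. All 4 genes had their deletion arrays below both wild type arrays, SAM3 at its brightest probe set but not at every other one. The flanking genes AYT1, GTT2 and PBI1 did so too. Such separation was seen for 21.7% of all probe sets tested, and MHT1 and PBI1 were too dim to test. FDH2, on the other side of SAM3, was not analysed here. The pairs were singled out after their values were seen.

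**Figure D3:**
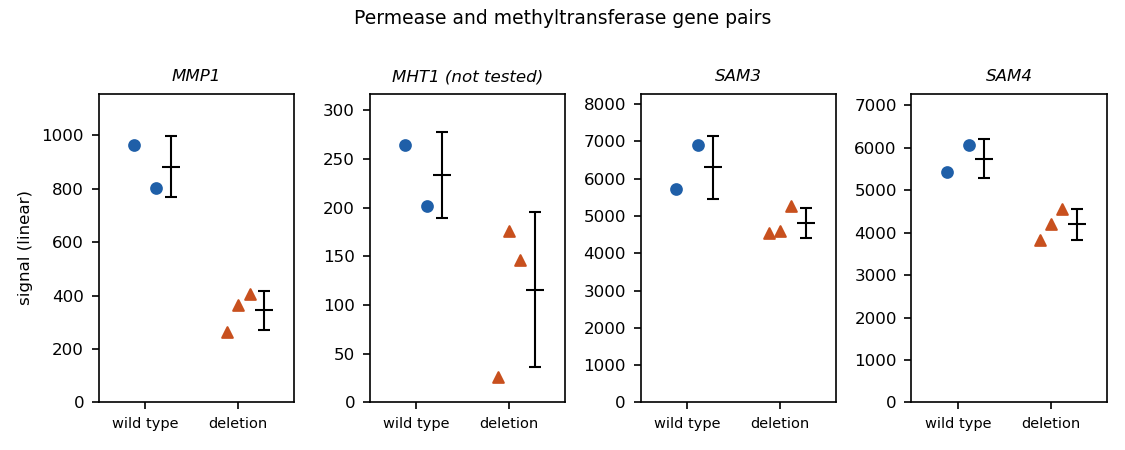
Signal on a linear axis of the neighbouring pairs MMP1 with MHT1 and SAM3 with SAM4, with circles for the 2 wild type arrays, triangles for the 3 deletion arrays and bars for the mean and SD of each group. All deletion arrays lie below both wild type arrays in each panel. The means were 883 and 345 for MMP1, 6307 and 4800 for SAM3, and 5746 and 4198 for SAM4.

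The permeases of methionine itself had no call. MUP1, the high-affinity permease, had 5152 and 2694.6 against 4804.6, 5369.9 and 5305.8. The wild type arrays thus lay far apart, and wild type replicate 1 lay within the deletion range. The log2 change was 0.47 ± 0.21 with no call (adjusted p = 0.228). Without wild type replicate 1 it was 0.94 (adjusted p = 0.00211) and passed the threshold, and without wild type replicate 2 it was 0.00049 (adjusted p = 0.999). MUP3, a low-affinity permease, had -0.12 with a wide interval from -0.73 to 0.49.

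The sulfate permeases had no call. SUL2 had 564.6 and 642.4 against 460, 420 and 586.4, a log2 change of -0.32 ± 0.23 (adjusted p = 0.466). SUL1 was at or below background on all arrays, with signals from 33.7 to 113.7. Transport as a whole had 1 of 5 tested genes that fell (20%, against 3.05% of all probe sets) and none that rose (against 4.39%). At an unadjusted p below 0.05 there were 2 lower and 1 higher (40% and 20%, against 11.1% and 10.3%). With 5 genes these shares are coarse.

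None of the 4 tested regulators had a call. No count of their directions is given, since MET28 passed the filter on dim signals only through its deletion arrays, and MET32, with lower signals there, did not pass. MET4, the activator of the pathway, had signals of 1240 and 1364.4 against 1172.6, 1008.5 and 1000.3. Its deletion arrays lay below both wild type arrays, and the log2 change was -0.30 ± 0.16 (interval from -0.65 to 0.05, adjusted p = 0.32). MET30, which restrains Met4, had 1358.8 and 1063.9 against 1591.8, 1242.4 and 1476.8, with overlap and a log2 change of 0.25 ± 0.17 (adjusted p = 0.45). Met4 is known to be controlled mainly as a protein, which these arrays do not measure.

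MET28, a cofactor that stabilises Met4 on DNA, was dim and separated upward, with 204.9 and 193.9 against 261, 302.3 and 311.3. Its log2 change of 0.54 ± 0.30 had no call (adjusted p = 0.339). With a wild type mean of 199 it reached the filter of 250.3 only through the deletion arrays, at a mean of 292, and it was not tested when deletion replicate 2 or 3 was left out. The gene lies next to YIR016W, which rose from 2740.6 and 2216.6 to 4269, 4572.1 and 4953.4 (log2 change 0.90 ± 0.14, adjusted p = 0.00147). The neighbour of MET28 on the other side, YAP5, overlapped between the groups, at 0.13 ± 0.23. MET31 and MET32 encode related zinc finger proteins that bring Met4 to DNA. MET31 had 1157.9 and 1180.6 against 1465.8, 1084.1 and 1099.9, with overlap and a log2 change of 0.04 ± 0.18. MET32 had 181.6 and 225.2 against 66.7, 133.4 and 160.9 and was not tested. Its deletion arrays lay below both wild type arrays, with 1 of the 3 above background.

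Of 50 other genes of sulfur and methionine metabolism, 49 had a probe set and 46 were tested, of which 3 rose and 1 fell (6.52% and 2.17%, against 4.39% and 3.05% of all probe sets). The median log2 change was -0.09. OPT1, a transporter of glutathione, fell. It had 3579 and 3273.2 against 1852.4, 2295.8 and 2350.2, with all deletion arrays lower. Its log2 change was -0.67 ± 0.15 (adjusted p = 0.0146), a call lost without wild type replicate 1 (-0.60, adjusted p = 0.0719), with a range of adjusted p from 0.00508 to 0.137 over the alternatives. The permease gene AGP1, which carries many amino acids, rose from 1645.8 and 1623.4 to 2734, 2556.5 and 2755.5, a log2 change of 0.71 ± 0.13 (adjusted p = 0.00507).

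The 2 remaining increases were in enzymes that reach beyond the sulfur pathway. ARO9, an aromatic aminotransferase that can also act in methionine salvage, rose from 306.8 and 215.8 to 1070, 852.6 and 766.7. GTT1, a glutathione transferase, rose from 2589.8 and 2343.4 to 5278.1, 6300.9 and 6787.6. For either gene every deletion array was higher, with log2 changes of 1.79 ± 0.24 and 1.31 ± 0.14 (adjusted p = 0.000498 and 9.70e-05). ARO8, the constitutive counterpart of ARO9, had 0.01 ± 0.11, and GTT2, the other glutathione transferase on this list, had -0.34 ± 0.24.

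The other sublists had no call. CBF1, the DNA-binding partner of Met4, had a log2 change of -0.11 ± 0.18. SKP1, a subunit of the ubiquitin ligase that contains Met30, had 0.30 ± 0.11 (adjusted p = 0.147), and the other 3 subunits or partners of that ligase had values from -0.24 to -0.20. All 3 genes that supply homoserine had negative values, against 54.8% of all probe sets tested, and with 3 genes this share is coarse. HOM2, aspartate semialdehyde dehydrogenase, was at -0.24 ± 0.12 (adjusted p = 0.265). HOM6 overlapped between the groups, at -0.04 ± 0.13, near the median of all probe sets tested. SHM2, which feeds carbon into folate from serine, had 0.27 ± 0.12 (adjusted p = 0.204), and MET12, the second methylenetetrahydrofolate reductase, had -0.10 ± 0.14 where MET13 rose. MXR1, a methionine sulfoxide reductase, had -0.51 ± 0.17 (adjusted p = 0.1), and MXR2, its mitochondrial counterpart, had 0.67 ± 0.24 (adjusted p = 0.12). The wild type signals of MXR2, 1395.5 and 700, lay far apart. GRX8, a glutaredoxin, had -0.50 ± 0.33 (adjusted p = 0.425).

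**Figure D4:**
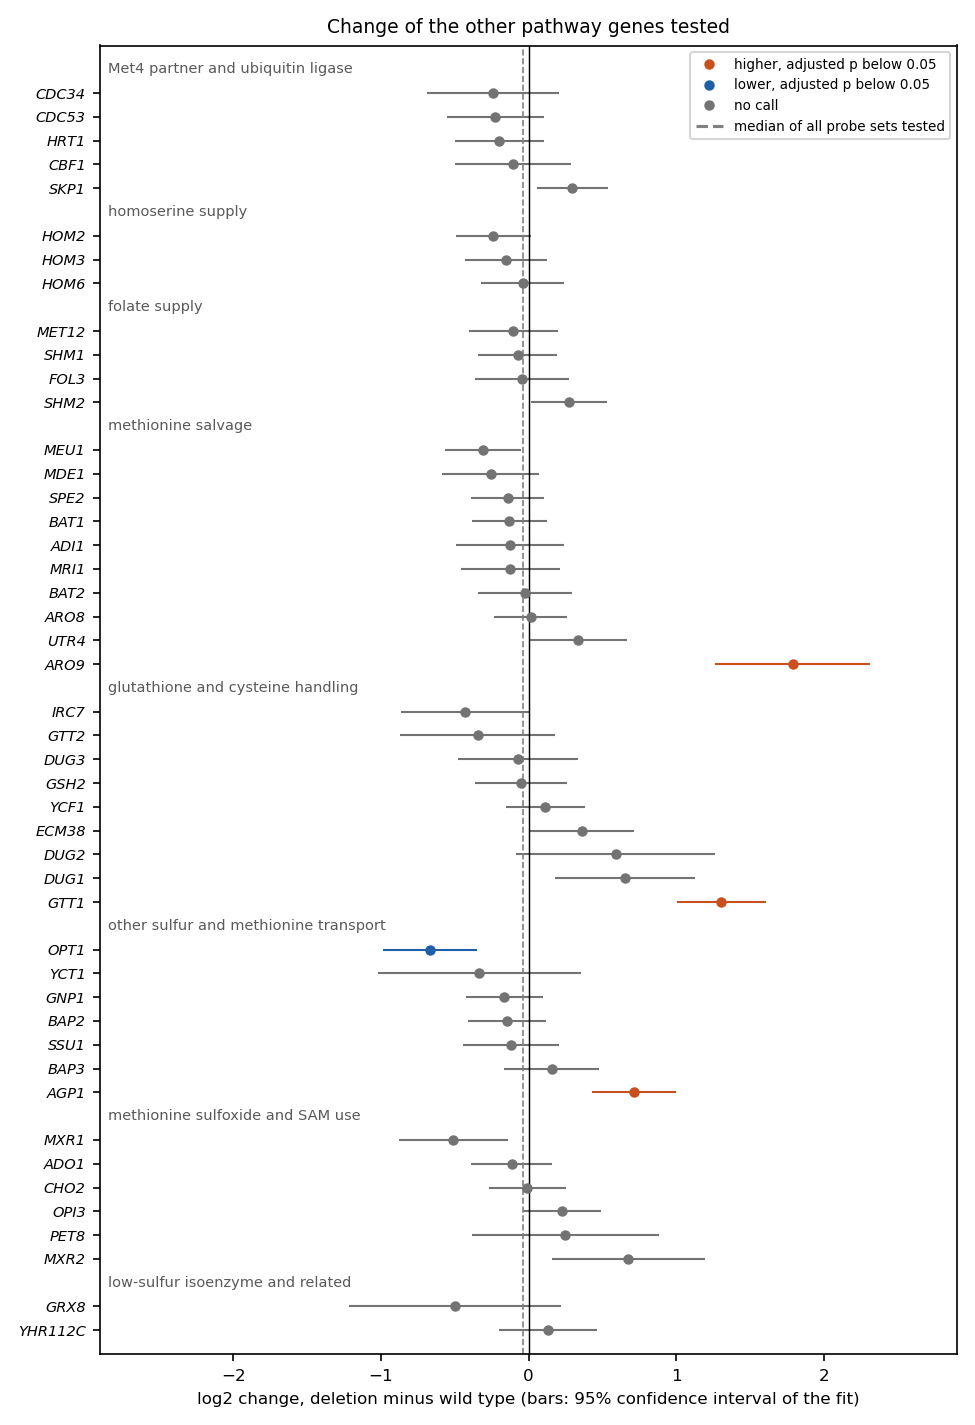
Log2 change (deletion minus wild type) of the 46 other pathway genes tested, by sublist, with the 95% confidence interval of the fit. Orange marks ARO9, GTT1 and AGP1, which rose, blue marks OPT1, which fell, and grey the 42 with no call. The dashed line is the median of all probe sets tested, -0.04.

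The arrays differed in how the members lay on them. The median over the 29 tested members of the log2 signal, relative to each gene's mean, was 0.13 and 0.17 for the wild type, against -0.13, -0.08 and -0.02 for the deletion. Deletion replicate 3 thus lay nearest to the wild type. For sulfate assimilation it was at 0.08, with deletion replicates 1 and 2 at -0.17 and -0.17 and the wild type at 0.22 and 0.20. The methionine cycle had 0.18 and 0.17 against -0.14, -0.04 and -0.09, and transport had 0.10 and 0.28 against -0.20, -0.22 and -0.02. The 4 regulators showed no such order, with -0.01 and -0.17 against 0.16, -0.12 and 0.02. Such medians were not taken over all probe sets, so for a single array a shift of the whole array was not told apart from one of the members. Between the groups, the median log2 change was -0.04 over all probe sets tested and -0.12 over the members.

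The number of members called depended on the arrays used and on the filter on dim probe sets. Those that fell numbered 2, and 1 (MMP1) when either wild type array, deletion replicate 1 or deletion replicate 2 was left out. Without deletion replicate 3 they were MMP1 and MET3. Those that rose numbered 1, then 2 without wild type replicate 1 (MET13 and MUP1) and 0 when the array left out was wild type replicate 2, or either of deletion replicates 2 and 3. Without the filter 0 of 36 members had a call in limma, where 54 probe sets were called higher and 51 lower out of 9275. At the main setting 2 and 9 members had an unadjusted p below 0.05.

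**Figure D5:**
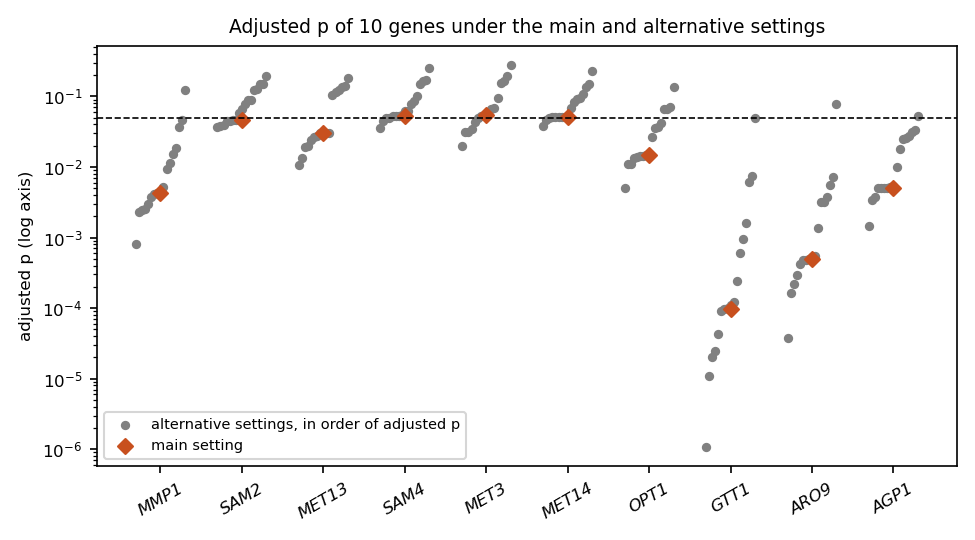
Adjusted p on a log axis of 10 genes at the main setting (diamonds) and under the alternative settings (grey points, in order of adjusted p), with the threshold of 0.05 dashed. MMP1, ARO9, GTT1 and AGP1 lie below the line in all but at most 1 alternative each, while SAM2, MET13, SAM4, MET3 and MET14 lie on both sides of it.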

How the data were processed

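Total RNA of 5 samples was labelled with biotin and measured on single-colour arrays. The deposited values are signal intensities, made by the authors with MAS5, per the submitters' processing notes. Its version is not given in the sources used here. Intensity columns as deposited share a trimmed mean (2% off each end) of 2502.47 to 2502.68 and were not scaled again, so total mRNA per cell is not measured. The 60 control probe sets were left out. Gene names came from the platform annotation (6504 probe sets with 1 gene, 328 with several, 2443 with none), and the reference table of assembly R64 held each of the 6504 identifiers. Signals were floored at 50.1, the trimmed mean over 50, log2 was taken, and the 6294 probe sets with a mean signal of at least 250.3 (trimmed mean divided by 10) were tested with limma 3.58.1 in R 4.3.3 (lmFit, then eBayes with trend, group as the only term). P-values are two-sided. The background level is the 95th percentile of 28 controls.

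Precision is limited by how few arrays there are. Nothing says that they came from separate cultures, and the p-values then cover only the array-to-array spread, which may be technical. On 20 simulations with 6294 probe sets and the same group sizes, 26.6%, 74.2% and 97.7% of changes of 1.5, 2 and 4 fold were called. They drew independent normal values with the spread that the fit itself estimated, changed 200 probe sets and used no floor or further filter. The shares thus hold only where the data behave as the fit assumes.

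The members, the list of 50 other genes and the settings were chosen with earlier results of these data known. Values on every array are given for members past the threshold, for those that separated by at least 0.5 on the log2 scale, for regulators, and for others where the text turns on them. Of the other genes, those past the threshold and the 1 with the smallest p of each sublist are named. CYS4, MET2, MET6, MET17, MET22, MHT1, MUP1, SAM1, SAM3, SAM4, SUL2, ARO8, CBF1, GTT2, MET12, MXR2 and the neighbouring genes AYT1, GTT2, PBI1, YAP5 and YIR016W were given in more detail after their values were seen. YLL058W had no probe set under that name. A planned search of promoters and comparison of proteins was not run, since sequences were not used here. The alternatives were other floors, filters, normalizations, variance models, array weights, 1 array left out, a block on the replicate number, and a mean over a gene's probe sets.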

Additional observations from a re-analysis of the deposited data

How the results depend on the processing

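Of the 29 tested members, 21 kept the sign of their log2 change under all alternatives that tested them. With arrays left out in turn, the members that rose numbered 0 to 2 and those that fell 1 to 2, and the other pathway genes 3 to 6 and 0 to 1; where a lone wild type array remained, it was assumed to vary like the deletion arrays. Members that fell numbered 4 with quantile normalization, median centring, robust eBayes or array weights, 1 with no variance trend and 0 with no filter on signal. The 4 were not the same genes throughout. SAM2 was among them with quantile normalization and robust eBayes. With median centring or array weights SAM2 had no call, and the 4 were MET3, MET14, SAM4 and MMP1. Members that rose numbered 0 without a variance trend, without the filter or with the block. Other pathway genes that rose numbered 5 with median centring, and those that fell 0 without the filter, without a variance trend or with the block. The causes were not tested. Replicate numbers 1 and 2 occur in both groups, but deviations of same-numbered arrays correlated at -0.07 and -0.07, so the numbers are not read as pairs; with the replicate block, 1 member fell (MMP1), 0 rose, and 2 other pathway genes rose and 0 fell. With 1 array left out, the log2 change crossed 0, with no call, for MET16 (-0.30 to 0.088), MET8 (-0.37 to 0.62), BDS1 (-0.31 to 0.71), MET6 (-0.26 to 0.031), SAH1 (-0.12 to 0.056), STR2 (-0.23 to 0.022), CYS4 (-0.39 to 0.36) and MET31 (-0.10 to 0.12). The sign also turned for SAH1 with the replicate block (0.056), CYS4 with median centring (0.0084) and MET31 with array weights (-0.041). Signals near background (JLP1, MET2, MET17, SUL1) set no level, and those just above it (MHT1, MET32, STR3) were below the filter; tested without it, these 7 genes had adjusted p from 0.482 to 1.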
